A study of Mus musculus with 4 samples.

Results

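The BCL2 family genes described here are 10 regulators of apoptosis: the survival genes Bcl2, Bcl2l1 and Mcl1, the death effectors Bax and Bak1, and the BH3-only genes Bcl2l11, Bid, Bad, Bbc3 and Pmaip1. They were found as every array probe whose transcript accession maps to one of these symbols, which gave 16 probes of 10 genes among 41174 probes, of which 24375 carry a symbol (17016 genes). The RNA came from prostate spheres, a three-dimensional culture grown here from prostate basal cells that had been sorted by flow cytometry from adult FVB mice. Of the 2 groups, vehicle spheres received medium with DMSO and DAPT spheres medium with 5 µM DAPT, an inhibitor of the γ-secretase complex that cuts and so activates Notch receptors, and in both groups the medium was replaced every 24 h. Each group had 2 arrays, numbered 1 and 2, and every array carried sphere RNA in the red channel and a universal mouse reference RNA, a commercial pool, in the green channel. The series addresses how Notch signalling regulates basal cell proliferation and differentiation, and for these genes the comparison asks whether their RNA differed when Notch cleavage was inhibited.

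BCL2 family proteins decide whether the outer mitochondrial membrane stays closed. BAX and BAK, the products of Bax and Bak1, open pores in it and let cytochrome c out, which starts the caspase cascade. BCL2, BCL-XL (from Bcl2l1) and MCL1 hold them back, and BH3-only proteins such as BIM (Bcl2l11), BID, BAD, PUMA (Bbc3) and NOXA (Pmaip1) respond to stress or loss of survival signals by binding the survival proteins, and some of them by activating BAX and BAK directly. Epithelial cells that lose contact with matrix are known to use BIM in this way.

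Among these genes Bcl2l11 stood out. The brighter of its 2 probes fell with DAPT by 1.44 on the log2 scale, a 2.71-fold lower ratio to the reference, and it was the only probe of the family to pass the test. None of the survival genes and neither effector passed, nor did Bid, Bad, Bbc3 or Pmaip1. With 1 of 16 probes called lower and 0 called higher, the family's share of calls (6.25%) was near the background: 6.8% of the 27330 probes tested were called, 3.68% lower and 3.12% higher. At an unadjusted p under 0.05, without regard to the number of tests, 5 of the 16 were lower and 1 was higher (37.5%), beside 3417 lower and 3061 higher of the 27330 probes (23.7%). Without vehicle 1 the change of Pmaip1 was -0.82, and without vehicle 2 that of the second Bcl2l11 probe was -0.95. Leaving out an array leaves 1 array in a group, whose spread cannot then be measured.

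Values below are log2 ratios of sphere RNA over reference RNA after loess normalization within each array. A change is the mean of the DAPT arrays minus that of the vehicle arrays, with the SE from limma (2 arrays per group). P-values were adjusted over the 27330 probes by the Benjamini-Hochberg method, and the threshold was 0.05. Where a gene has several probes they are numbered from the brightest in the red channel. Probes of a gene share its RNA and are not replicates. All 16 probes were well above background in both channels on all 4 arrays, for probes printed in 10 spots in at least 1 of them, and none was saturated. Whether both arrays of a group stand for separate cultures or mice is not said in the labels. The p-values therefore rest on the spread between these arrays alone, which could be technical. For each probe limma draws this spread largely from all probes together (9.72 prior against 2 residual degrees of freedom). Since the RNA came from whole spheres, fewer cells of a type and less RNA per cell cannot be told apart.

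The arrays shared 1 slide and 1 scan. The median red signal of probe spots was 1.83 to 1.95 times the local background with vehicle and 2.4 to 2.84 times with DAPT, and the scanner software marked 11.5% and 29.2% of probe spots as non-uniform or outlying on the vehicle arrays against 49.6% and 50.9% on the DAPT arrays. Log ratios correlated across probes at 0.918 between the vehicle arrays, at 0.942 between the DAPT arrays and at 0.833 to 0.872 between groups. All 6 basal markers, among them Krt5 and Krt14, were well above background on all 4 arrays. Of 6 luminal markers 4, among them Krt19, were well above background in red on all 4 arrays, while Pbsn was so on none.

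**Figure D1:**
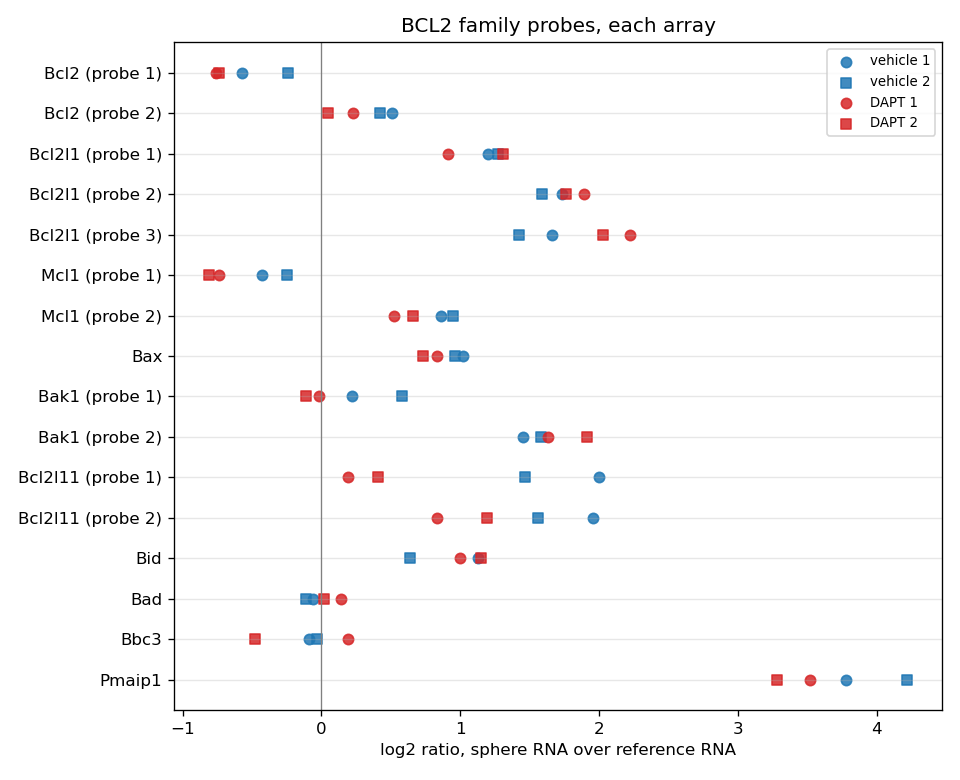
Log2 ratio of sphere RNA over reference RNA (horizontal axis) for each of the 16 probes (rows), with vehicle arrays in blue and DAPT arrays in red, array 1 as circles and array 2 as squares. For Bcl2l11 probe 1 both DAPT arrays, at 0.19 and 0.41, lie left of both vehicle arrays, at 1.47 and 2.00, while for Bid, Bbc3 and Bcl2l1 probe 1 the groups overlap.

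Bcl2l11 encodes BIM, a BH3-only protein that binds all the main survival proteins. The stretches around its transcription starts are shown because it is the only member whose RNA passed the test. They are the RefSeq windows (GRCm38.p6) from 250 bases before to 50 bases after each listed start, both on the plus strand, at chr2:128125788-128126087 (window 1) and chr2:128127325-128127624 (window 2). Capitals mark matches on either strand to GTAAACA, a site bound by FOXO factors, or to TGGGAA, the core bound by RBPJ, the DNA-binding partner of Notch.
Bcl2l11 window 1: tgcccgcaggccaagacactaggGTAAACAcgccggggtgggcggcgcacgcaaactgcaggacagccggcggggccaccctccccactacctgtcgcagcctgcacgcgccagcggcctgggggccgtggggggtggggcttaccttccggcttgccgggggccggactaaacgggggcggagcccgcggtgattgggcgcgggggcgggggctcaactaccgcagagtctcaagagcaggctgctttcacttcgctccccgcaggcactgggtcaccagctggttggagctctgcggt
Bcl2l11 window 2: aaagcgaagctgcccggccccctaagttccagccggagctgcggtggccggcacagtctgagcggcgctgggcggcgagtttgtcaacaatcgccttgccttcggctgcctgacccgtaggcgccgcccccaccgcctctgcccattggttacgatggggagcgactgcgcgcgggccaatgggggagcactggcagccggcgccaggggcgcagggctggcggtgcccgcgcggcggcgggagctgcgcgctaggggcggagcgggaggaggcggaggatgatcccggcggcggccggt
Window 1 held 1 FOXO match, and neither window held an RBPJ core. Of all 32851 promoter windows of this length, 3.65% held the FOXO letters and 25.6% the RBPJ core. Both windows were rich in GC, at 71.0% and 74.0% against a median of 52.7% over all windows, and each held 3 GC boxes (GGGCGG), a site found in 35.7% of windows. A match of letters is a description of the window and was not measured as binding.

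In the red channel, the spot of Bcl2l11 probe 1 (A_52_P158527) had a median signal, not normalized, of 1920 and 1177 on the arrays vehicle 1 and 2 and of 987 and 913.5 on DAPT 1 and 2, over local backgrounds of 58 to 64. The green spot, which carries the reference, was at 1418, 1719, 2178 and 1707.5 on the same arrays. The red signal was lower on both DAPT arrays than on either vehicle array even before normalization. After normalization the log2 ratio was 2.00 and 1.47 with vehicle (mean 1.74 ± 0.37, SD, n = 2) and 0.19 and 0.41 with DAPT (mean 0.30 ± 0.16, SD, n = 2). Both DAPT arrays lay more than 1 log2 unit below the lower vehicle array. The change was -1.44 ± 0.22 (limma adjusted p = 0.00362), with a 95% interval of -1.93 to -0.95, or 1.93-fold to 3.80-fold lower. Of the 27330 probes tested 190 had a change this low or lower (0.695%).

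The second Bcl2l11 probe (A_51_P484880), designed to the same transcript, gave ratios of 1.96 and 1.56 with vehicle and 0.83 and 1.19 with DAPT. Again the groups did not overlap, with DAPT lower. Its change of -0.75 ± 0.22 did not pass (adjusted p = 0.0645), and its 95% interval ran from -1.23 to -0.27. The intervals of the probes overlap, and the difference between the probes was not tested. Leaving out vehicle 2, which leaves 1 vehicle array, took this probe to -0.95. Scale normalization between arrays took it to -1.05 and past the threshold (limma adjusted p = 0.0189).

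The fall of Bcl2l11 lay in the sphere channel. After loess and Aquantile normalization, which makes single channels comparable between arrays, the mean log2 red signal of probe 1 was 11.77 with vehicle and 10.24 with DAPT, a difference of -1.53, while its green signal went from 10.03 to 9.94. For probe 2 the red signal went from 9.26 to 8.55 and the green from 7.50 to 7.54. Probe 1 kept a change between -1.70 and -1.03 in all 15 alternative analyses in which it had a value and its call in 12 of them. It did not pass with the processed signals of the scanner software (-1.03, adjusted p = 0.0871), in the sample channel alone (-1.53, adjusted p = 0.245), an analysis that called 1 probe in all, or with 13 debris spots of DAPT 2 kept (-1.49, adjusted p = 0.0793). Its spot was marked by the scanner software on 3 of 4 arrays, so it has no value once marked spots are left out. Alternatives that left out an array kept 1 array in that group, whose spread could not be measured. Nor are the alternatives independent: other filters, the probe choice and the replicate block used the same ratios. The authors' table held nearly the same ones, and the change was -1.44 in each of these.

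**Figure D2:**
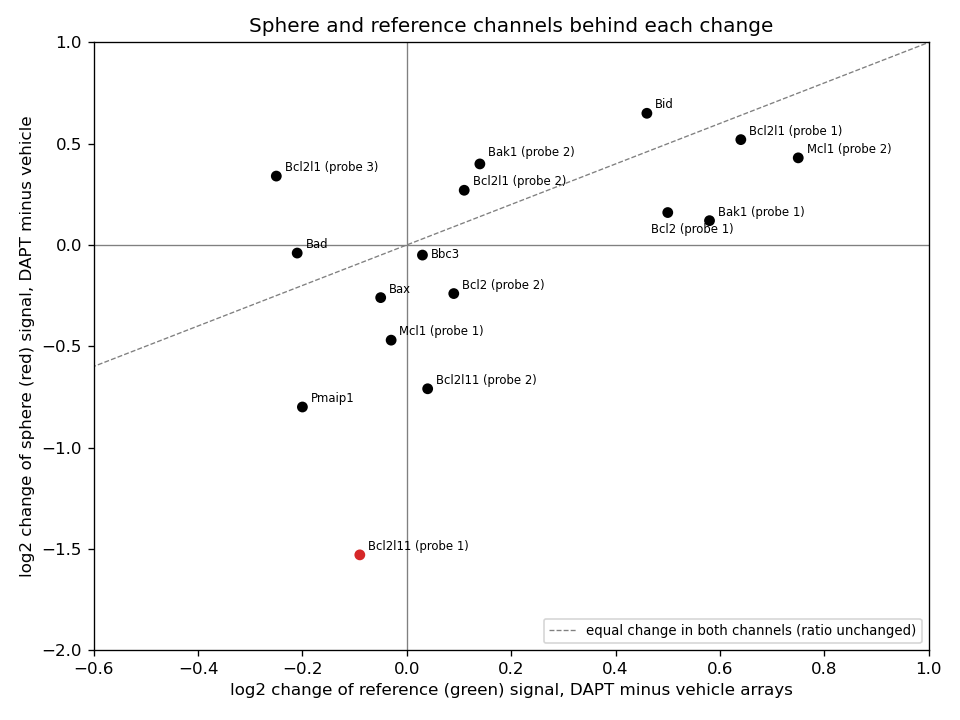
Log2 change of the sphere signal (red channel, vertical axis) against that of the reference signal (green channel, horizontal axis), DAPT minus vehicle arrays, after loess and Aquantile normalization. Each point is a probe, the called one in red, and the vertical distance to the dashed line is the change of the ratio: Bcl2l11 probe 1 lies at -1.53 in red and -0.09 in green, while Mcl1 probe 2 moved by 0.43 in red and 0.75 in green.

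Markers of fibroblasts, cells outside the sorted population, were lower with DAPT as well. Of 6 such markers 5 fell, from Col3a1 at -1.44 ± 0.23 (limma adjusted p = 0.0041) to Postn at -2.39 ± 0.21 (adjusted p = 0.000122), and the sixth, Pdgfra, was at -0.40 ± 0.21. All 6 were well above background on all 4 arrays, and their summed normalized red signal was 18900 and 23800 on the vehicle arrays and 7770 and 9020 on the DAPT arrays. Of 5 smooth muscle markers 1 passed, and 4 had a negative and 1 a positive change, with a median of -0.48. Their summed signals were 69900 and 88600 with vehicle and 68900 and 76600 with DAPT. The brightest of them, Acta2, was at -0.04 ± 0.20. Of 2 endothelial and 4 leukocyte markers tested none was called. The 4 leukocyte markers were well above background in red on all 4 arrays. Of 4 endothelial markers 1 was so on all 4 arrays and 1 on 3, while Cdh5 and Tek were so on none. Of the epithelial markers, the basal keratin Krt15 fell (-1.08 ± 0.20, limma adjusted p = 0.00917), as did the luminal keratin Krt19 (-1.11 ± 0.19, adjusted p = 0.00636). Called lower were 1 of 6 basal markers and 2 of 4 luminal markers tested, and none was called higher. The basal median was 0.16, with 4 positive and 2 negative changes. The luminal median was -0.74, with 4 negative changes and 0 positive. Which cells of the spheres carried the fibroblast marker RNAs is not shown, and any part of fibroblasts in the fall of Bcl2l11 was not tested.

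Pmaip1, which encodes NOXA, a p53-induced BH3-only protein that mainly opposes MCL1, had the family's highest ratio to the reference. Its single probe stood at 3.78 and 4.22 with vehicle and at 3.52 and 3.28 with DAPT. The groups did not overlap, and DAPT was lower. The change of -0.60 ± 0.22 did not pass (limma adjusted p = 0.121, 95% interval -1.07 to -0.12), with normalized red means of 12.62 and 11.82 and green means of 8.62 and 8.42. Without vehicle 1, which leaves 1 vehicle array, the change was -0.82. Pmaip1 passed with scale normalization (-1.41, limma adjusted p = 0.00913), while the processed signals gave -0.03. Its spot was marked by the scanner software on all 4 arrays.

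The other BH3-only genes had changes near 0, and none passed. Bbc3, which encodes PUMA, another p53-induced activator of death, was at -0.09 and -0.03 with vehicle and at 0.19 and -0.48 with DAPT. Its DAPT arrays lay on either side of the vehicle arrays, and its change of -0.09 ± 0.24 had a 95% interval of -0.60 to 0.43. Bid, whose product links death receptors to mitochondria once caspase 8 has cut it, was at 1.13 and 0.64 with vehicle and 1.00 and 1.15 with DAPT, a change of 0.19 ± 0.22 with overlapping groups (interval -0.28 to 0.67). Bad, a target of survival kinases, was at -0.06 and -0.11 with vehicle and 0.14 and 0.02 with DAPT (change 0.17 ± 0.19, interval -0.25 to 0.59). The limma adjusted p was 0.862 for Bbc3, 0.639 for Bid and 0.64 for Bad. These intervals leave room for log2 changes of up to 0.67 upward and -0.60 downward, so the genes are not shown to be the same in both groups.

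The survival gene Bcl2l1 gave 3 probes on 1 transcript that did not move together. Probe 3 (A_52_P148861), the dimmest, was at 1.66 and 1.42 with vehicle and 2.22 and 2.03 with DAPT, with DAPT above. Its change of 0.58 ± 0.20 was the largest upward change of the family and did not pass (limma adjusted p = 0.102, interval 0.15 to 1.02). Probe 2 (A_52_P510877) was at 1.73 and 1.59 against 1.89 and 1.76, a change of 0.16 ± 0.19, and probe 1 (A_51_P299454) was at 1.20 and 1.27 against 0.91 and 1.31, a change of -0.12 ± 0.21 with overlapping groups. Bcl2l1 thus has no direction common to its probes, and all 3 changed sign under at least 1 alternative analysis.

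Mcl1, a short-lived survival protein's gene, had negative changes on both its probes, neither of which passed. Probe 1 (A_51_P238786) was at -0.43 and -0.25 with vehicle and -0.74 and -0.81 with DAPT, a change of -0.44 ± 0.19 (limma adjusted p = 0.197). Probe 2 (A_52_P93933) was at 0.86 and 0.95 with vehicle and 0.52 and 0.66 with DAPT, a change of -0.32 ± 0.19 (limma adjusted p = 0.342). Groups did not overlap on either probe, but the channels behind them differed. The normalized red mean of probe 1 went from 10.33 to 9.86 with the green at 10.67 and 10.64, whereas that of probe 2 went up from 8.42 to 8.85 while the green went from 7.51 to 8.27. In the sample channel alone probe 2 therefore stood at 0.43.

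Bcl2, the founding survival gene, has a probe on each of 2 RefSeq transcripts. Probe 1 (A_51_P380013) was at -0.57 and -0.24 with vehicle and -0.76 and -0.74 with DAPT, a change of -0.34 ± 0.20. Probe 2 (A_52_P534870) was at 0.51 and 0.42 with vehicle and 0.23 and 0.05 with DAPT, a change of -0.33 ± 0.19. Both changes were close to each other, with DAPT below vehicle and no overlap, and neither passed (limma adjusted p = 0.333 and 0.334). For probe 1 the red mean went from 14.96 to 15.12 and the green from 15.37 to 15.87, so that its sign turned in the sample channel alone (0.16) and with median centring (0.11). Probe 2 kept a negative change in all 15 alternatives in which it had a value, between -0.87 and -0.24.

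The effector Bax was at 1.02 and 0.96 with vehicle and 0.83 and 0.73 with DAPT, a change of -0.21 ± 0.19 (limma adjusted p = 0.544). The groups did not overlap, by a margin smaller than the SE. The other effector, Bak1, gave opposite signs on its 2 probes. Probe 1 (A_52_P225207) was at 0.22 and 0.58 with vehicle and -0.02 and -0.11 with DAPT (change -0.46 ± 0.20, adjusted p = 0.193), and probe 2 (A_51_P395011) was at 1.45 and 1.58 against 1.63 and 1.91 (change 0.26 ± 0.20, limma adjusted p = 0.475). In the sphere channel probe 1 was at 13.57 with vehicle and 13.69 with DAPT and probe 2 at 10.48 and 10.88. The reference signal of probe 1 went from 13.17 to 13.75, and what lowered its ratio was not tested.

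**Figure D3:**
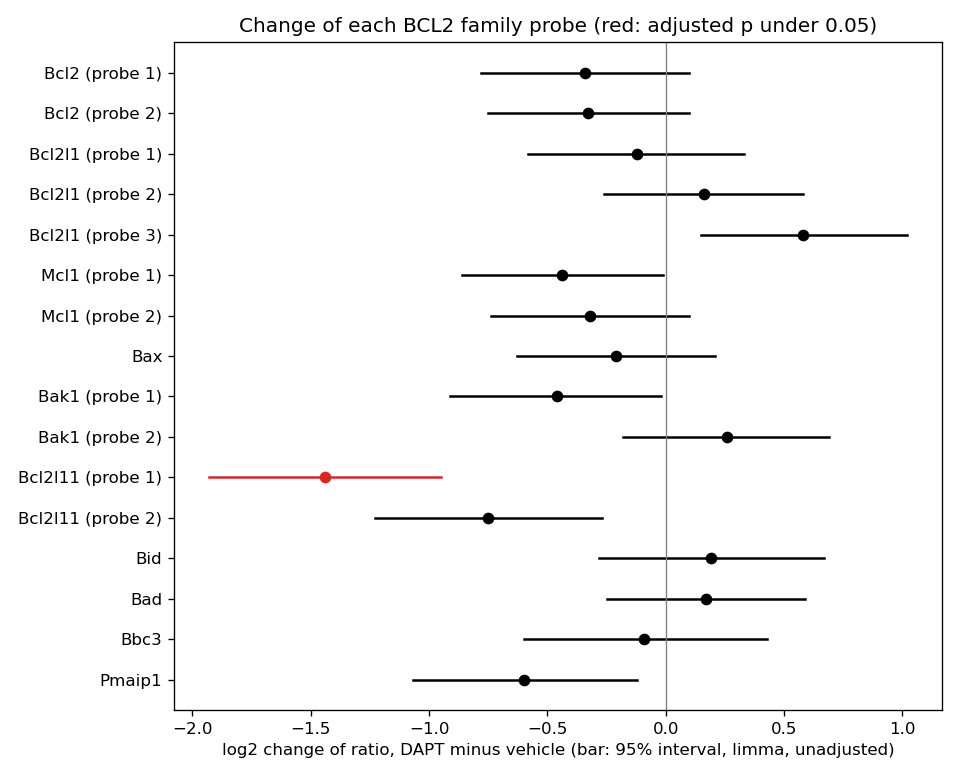
Change of the log2 ratio, DAPT minus vehicle, for each probe (rows), as a point with its 95% interval from limma, not adjusted for the number of tests; red marks an adjusted p under 0.05. The interval of Bcl2l11 probe 1 runs from -1.93 to -0.95, and the intervals of 10 other probes cross 0.

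The probes of Bcl2 (probe 2), Bcl2l1 (probe 3) and Bax were printed as 10 spots on each array, which shows the spread within an array. For Bcl2l1 the standard deviation between spots of 1 array was 0.19 and 0.28 on the vehicle arrays and 0.19 and 0.30 on the DAPT arrays. Single spots reached from 0.94 to 1.95 over the vehicle arrays and from 1.32 to 2.54 over the DAPT arrays, so they overlap although the array means do not. For Bax the spot standard deviation was 0.13 to 0.21 and for Bcl2 0.15 to 0.29. On DAPT 2 only 7 of 10 Bcl2 spots were well above background in red, and 9 of 10 on DAPT 1, against all 10 on each vehicle array. The other 13 member probes had a single spot per array, and a change there rests on 4 spots.

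Across the family, 11 of 16 probes had a negative and 5 a positive change, with a median of -0.27 against -0.04 over all probes. The DAPT arrays lay below both vehicle arrays for 9 probes and above both for 4, where 30.6% and 23.7% of all probes did so (54.3% in either direction). This lean of the family depended on the scaling. With median centring in place of loess 7 of 16 were negative and the family's median was 0.13 against 0.10 for all probes, in the sample channel alone 8 were negative with a median of 0.04 against -0.01, and with scale normalization between arrays 14 were negative with a median of -0.35 against -0.04. By role, taking the brightest probe of each gene, the median change was -0.34 for the 3 survival genes, -0.34 for the 2 effectors and -0.09 for the 5 BH3-only genes, and a single gene of these 10 passed.

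**Figure D4:**
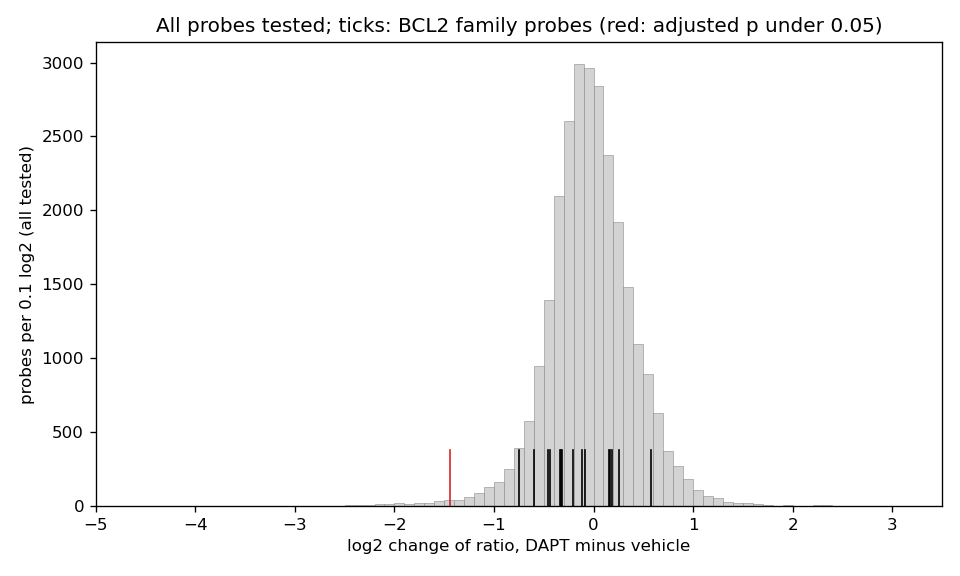
Number of probes (vertical axis) by change of the log2 ratio, DAPT minus vehicle (horizontal axis, bins of 0.1), for all 27330 probes tested, with a short line for each of the 16 BCL2 family probes and the called one in red. Bcl2l11 probe 1 at -1.44 lies in the left tail, and the other 15 lie between -0.75 and 0.58.

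Windows of 9 of the 10 genes were searched, 1 to 3 per gene and 15 in all. Member windows on a single chromosome were left out of the search, though the shares over all windows include that chromosome. No window of Pmaip1 was searched, so the counts below do not cover this gene. The RBPJ core stood in the windows of Bax and Bad and in none of those of Bcl2, Bcl2l1, Mcl1, Bak1, Bcl2l11, Bid or Bbc3, that is in 3 of 15 windows against 25.6% of all windows. The FOXO letters stood in Bcl2l11 and Bbc3 alone. The p53 half-site was matched in Bax alone (8.36% of all windows). Matches were sought on both strands, and the letters of the RBPJ and E2F motifs share the stretch GGGAA. AP-1 letters (TGANTCA), present in 7.81% of all windows, were matched in none of the 15, and the E2F letters GCGGGAA, present in 4.6%, in Bbc3 alone.

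Genes up- and downstream of the family were measured on the same arrays. Of 67 genes in 7 lists 62 had a named probe and 58 were tested on their brightest probe, and none passed in either direction. Over the brightest probe of all 21500 genes 6.6% passed (2.79% higher and 3.8% lower). Each accession without a symbol counts there as its own gene, and 14020 of the 21500 have a symbol. With limma at an unadjusted p under 0.05, 6 were higher and 7 lower (22.4%, against 23.7% of all probes). The median change over the 58 was -0.15, against -0.06 over those 21500, and 34 of 58 had groups that did not overlap, beside 53.9% of the 21500. Leaving out an array leaves 1 array in a group and gave larger changes for a few genes. Without vehicle 1, Aifm1 was at 0.82 and Xiap at 0.77. Without vehicle 2, Tnf was at -1.11 and Casp6 at -0.93. Without DAPT 1, Bcl2a1b was at -0.93, and without DAPT 2, Trp63 was at 1.41. These genes, Xiap aside, are named because their values were seen.

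No other BCL2 family member passed. Bcl2l2, which encodes the survival protein BCL-W, was at 0.47 and 0.09 with vehicle and -0.27 and -0.11 with DAPT, a change of -0.47 ± 0.21 (limma adjusted p = 0.194) that was 0.01 in the sample channel alone. The BH3-only genes Bmf, known for its response to detachment, and Bik were at -0.20 ± 0.25 and -0.26 ± 0.29 with overlapping groups. Of 7 BH3-only and related genes 6 had a negative change, from -0.30 to 0.13, and none passed. Bok had no named probe.

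Downstream of mitochondria, Cycs (cytochrome c) changed by 0.21 ± 0.20, Apaf1, the scaffold of the apoptosome, by -0.09 ± 0.20, and its caspase, Casp9, by 0.46 ± 0.19 (limma adjusted p = 0.174), with Casp9 at 0.84 and 0.69 against 1.15 and 1.30. The list of apoptosome and executioner caspase genes also holds others, such as Aifm1, Endog and the Vdac genes. Of its 13 genes tested 7 had a positive and 6 a negative change, with a median of 0.01.

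Among the inhibitors of apoptosis, Xiap, which blocks caspases, was at 0.51 and 0.18 with vehicle and 0.97 and 0.93 with DAPT. Its change of 0.60 ± 0.20 did not pass (limma adjusted p = 0.097) and was 0.77 without vehicle 1, which leaves 1 vehicle array. Birc5 (survivin) at -0.10 ± 0.20 and Diablo, which encodes the XIAP antagonist SMAC, at -0.06 ± 0.22 had overlapping groups. In the death receptor arm, Fas changed by -0.12 ± 0.19 and Casp8 by -0.20 ± 0.21. The genes nearest to the threshold, named after their values were seen, were the adaptor gene Fadd and the ligand gene Tnf. Fadd was at 0.67 ± 0.19 (limma adjusted p = 0.0593) and passed with median centring (0.90, adjusted p = 0.0232). Tnf was at -0.80 ± 0.23 (limma adjusted p = 0.0615) and at -1.11 without vehicle 2. Tnf passed with the replicate block (limma adjusted p = 0.0353) and with scale normalization (-0.96, adjusted p = 0.0367).

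Among the regulators listed upstream of the family, Trp53 was at -0.43 and -0.12 with vehicle and -0.62 and -0.33 with DAPT, a change of -0.20 ± 0.21. Foxo3, a known activator of Bcl2l11 transcription, was at 0.33 and 0.00 with vehicle and 0.25 and 0.38 with DAPT, a change of 0.15 ± 0.20. Groups overlapped for both (limma adjusted p = 0.615 and 0.706), and RNA levels say nothing of the activity of these proteins. All 15 regulators tested had an adjusted p of at least 0.155.

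**Figure D5:**
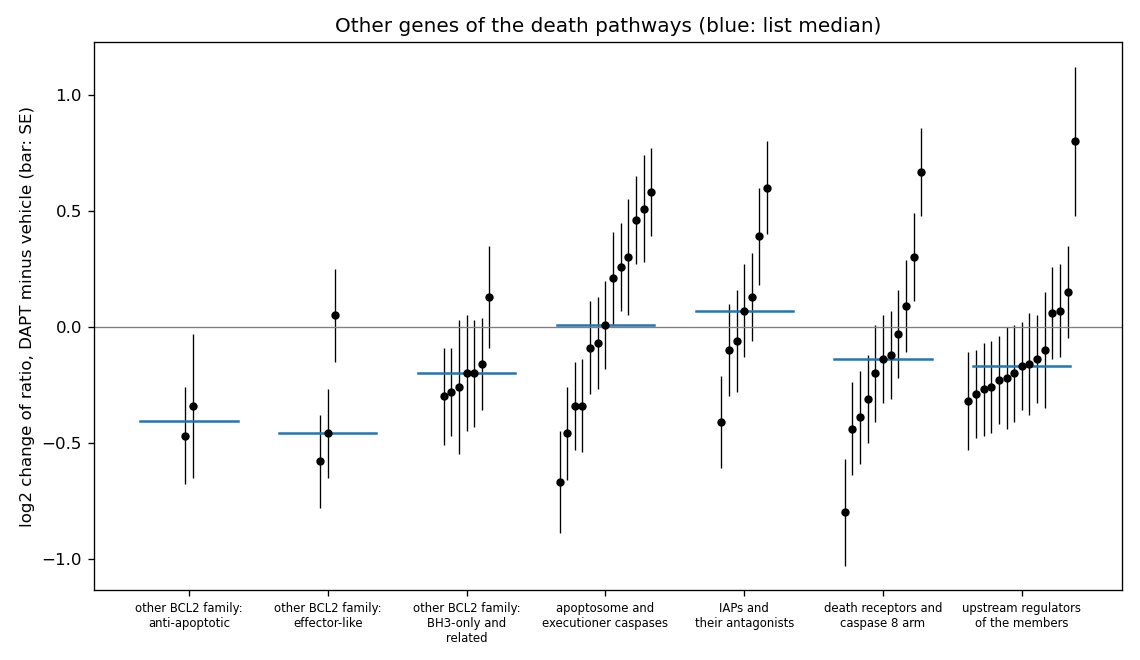
Change of the log2 ratio, DAPT minus vehicle, with its SE for each of the 58 pathway genes, grouped by list and sorted within it; the blue line is the list's median. Medians run from -0.46 for the effector-like genes to 0.07 for the inhibitors of apoptosis and their antagonists, and no gene passed the threshold.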

How the data were processed

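Gene expression was measured on 4 Agilent arrays with 2 colours, 2 of vehicle and 2 of DAPT spheres, from 2.5 µg of total RNA per the labels, sphere RNA in red and reference RNA in green on every array with no dye swap. Titles gave each sample's group and number. Per the file headers, Agilent Feature Extraction 10.7.3.1 wrote the spot and local background intensity (median pixel brightness, not normalized), processed intensities that were background-subtracted and dye-normalized, and a deposited log10 ratio, read only to settle direction. The authors' deposited value table holds log2 ratios; their normalization is not given in these sources. It correlated at 0.869 to 0.902 with the scanner ratios of the same array, so it runs as sample over reference, with column medians of 0.00072, -0.011, -0.015 and -0.011, and at 0.9996 to 0.9998 with the ratios computed here.

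On DAPT 2, 13 spots were left out because their local background exceeded 5 times that array's median, 60, and reached 29091. Background was corrected with normexp (offset 50) and loess was run within arrays with control spots at weight 0. Spots of a probe were averaged. The 27330 probes called well above background in the red channel on each array of at least 1 group were kept and compared with limma 3.58.1 in R 4.3.3 (two-sided, 2 residual and 9.72 prior degrees of freedom, Benjamini-Hochberg), which was also tested on simulated data. Symbols came from RefSeq transcript accessions of GRCm38.p6 (names only), and 16799 probes have no symbol here. Promoter windows, with coordinates of that build, came from RefSeq and were searched in Python 3.11.15.

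The members and lists were chosen with earlier results of these data known. Named are every member with all its probes, pathway genes that passed in the main analysis (0) and 14 preset pathway genes; some preset genes and markers are not reported here. Alternatives covered normalization, background, filters, marked and debris spots, channel, probe choice, the replicate block and leaving out each array. The number of arrays limits precision.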

Additional observations from a re-analysis of the deposited data

How the results depend on the processing

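Changing the filter, probe choice or offset, median centring, scale normalization, the replicate block and using the authors' table kept Bcl2l11 probe 1 called. Leaving out an array leaves 1 array in a group, whose spread cannot then be measured. The change of probe 1 was then between -1.70 and -1.18. Counts of calls without an array, given below, carry the same limit. Over 16 alternatives, 436 values of members and named genes were recomputed. Of these 390 kept their sign and 46 changed it, 3 lost a call and 5 gained one. The counts over all probes (853 higher, 1005 lower) became 1599 higher with median centring (69.7% of calls higher against 45.9%, with the median of all probes at 0.10), 496 higher with scale normalization (29.4%), 394 and 448 with the processed signals, 249 and 91 of 9580 testable without marked spots, 3 and 48 with debris spots kept, and 0 and 1 in the sample channel alone (3425 by limma at an unadjusted p under 0.05). Leaving out an array gave from 532 higher and 672 lower without DAPT 2 to 1297 higher and 1400 lower without vehicle 1. Member probes called lower, 1 in the main analysis, were 3 with scale normalization, 0 with the processed signals, 0 in the sample channel alone, 0 with debris spots kept and 0 of 3 testable without marked spots, and 1 to 2 without an array. Member probes called higher stayed at 0 in every alternative. Pathway genes called higher, 0 in the main analysis, were 2 with median centring (Fadd and Endog) and 0 to 2 without an array. Those called lower were 1 with median centring (Hrk), 2 with scale normalization (Tnf and Casp6), 1 with the replicate block (Tnf) and 0 to 2 without an array, and these genes are named because their values were seen. The cause of these shifts was not tested.

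The following turned sign, none of them called in the main analysis. With median centring, Bcl2 probe 1 was at 0.11, Bcl2l1 probe 1 at 0.35, Bax at 0.21, Bbc3 at 0.32, Bmf at 0.25, Apaf1 at 0.09, Birc5 at 0.36, Fas at 0.03, Casp8 at 0.10 and Trp53 at 0.25. With scale normalization, Bcl2l1 probe 2 was at -0.21, Bak1 probe 2 at -0.10, Bid at -0.01 and Birc5 at 0.04. With the processed signals, Bcl2l1 probe 1 was at 0.16, Bax at 0.28, Bad at -0.24, Bbc3 at 0.42, Apaf1 at 0.12 and Casp8 at 0.04. In the sample channel alone, Bcl2 probe 1 was at 0.16, Bcl2l1 probe 1 at 0.52, Mcl1 probe 2 at 0.43, Bak1 probe 1 at 0.12, Bad at -0.04, Bcl2l2 at 0.01, Birc5 at 0.02, Diablo at 0.21, Trp53 at 0.06 and Foxo3 at -0.23. With debris spots kept, Bcl2l1 probe 3 was at -0.12, Apaf1 at 0.00, Casp9 at -0.06 and Foxo3 at -0.02, and without marked spots Bbc3 at 0.41 and Fas at 0.05. Without an array, the values ranged over -0.32 to 0.07 for Bcl2l1 probe 1, -0.05 to 0.44 for Bid, -0.42 to 0.25 for Bbc3, -0.58 to 0.18 for Bmf, -0.74 to 0.23 for Bik, -0.27 to 0.08 for Apaf1, -0.21 to 0.00 for Birc5, -0.33 to 0.20 for Diablo and -0.02 to 0.32 for Foxo3.

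Deviations of same-numbered arrays from their group means correlated at 0.0942, and the labels tie the numbers to no shared culture or day, so they share only a number. With the replicate block 1083 probes were higher and 1234 lower, Bcl2l11 probe 1 kept its call at -1.44 (adjusted p = 0.0027), and pathway genes called lower were 1. A slide or scan block was not run, since all arrays shared 1 slide and 1 scan.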
